A study of Macaca fascicularis with 8 samples.

Results

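The EGFL7 locus was examined peak by peak in single-cell chromatin accessibility (scATAC-seq) data from cynomolgus monkey organs. The locus was taken as a window of 60002 bp on chromosome 15, from 1772849 to 1832850, and every deposited peak that overlapped it was kept. This gave 94 peaks out of 773526 in the 8 peak lists, of which 91 lay wholly inside the window. Positions are those of the deposited peak lists, and the genome build of these scATAC-seq peaks was not given in the sources used here. The methods name macFas6 for the RNA libraries of the study, and whether the peaks use it was not tested.

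EGFL7 encodes a secreted protein with EGF-like domains that is made mainly by endothelial cells and takes part in the formation of blood vessels. The gene also hosts a microRNA known for its role in the same cells. An ATAC-seq peak is a stretch of DNA where the Tn5 transposase cut often, which marks open chromatin such as promoters and enhancers. In the order of genes in the RefSeq annotation of another assembly of this species (T2T-MFA8v1.1), EGFL7 is flanked by AGPAT2, an enzyme of phospholipid and triglyceride synthesis, with DIPK1B beyond it. On its other side lie an uncharacterised protein-coding locus, a long non-coding RNA locus and NOTCH1, a receptor of the Notch pathway. A window of this size can therefore hold parts of neighbouring genes. Because the 2 assemblies were not matched, no peak was assigned to a gene and no sequence is shown.

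The 8 libraries came from 7 organs of adult monkeys in the normal condition, and the labels name no treatment or genetic change. The female animal gave the libraries of uterus, lung, heart, colon and liver (replicate 1, the female liver), and the male animal those of spleen, kidney and liver (replicate 2, the male liver). Every organ except liver therefore had 1 library, and organ, library and, in part, animal cannot be told apart. No test between organs was made, and the 2 liver libraries came from animals of different sex. The files name no genes, so the labelled organs were not checked against marker genes, and cells were not divided by type. A higher level in a library may come from more cells of an accessible type or from more accessibility per cell, and these cannot be told apart here.

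Barcodes that held 1000 counts or more were taken as cells, 78917 of 81475 in all. Spleen had the most cells, 20019, and the female liver the fewest, 728. Cells of the colon library held the most counts in total, 110748462, and those of the female liver the fewest, 1978404. The median per cell was highest in colon, with 7446 counts, and lowest in the female liver, with 2040. The female liver stood apart from the other libraries, because 34.5% of its 2110 barcodes passed the minimum while its peak list, with 165942 peaks, was the longest. The uterus had the shortest list, with 37159 peaks. Pairs of libraries shared between 3 and 379 barcode sequences, at most 3.15% of the smaller library. Levels are given as counts in 1000000 counts of a library's peaks (CPM), with 95% exact Poisson intervals, and shares of cells with 95% exact binomial intervals. These intervals cover counting error only.

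The 94 peaks differed in number and width between libraries. Lung had the fewest peaks, 7, and the female liver the most, 15. Uterus had 9, colon and heart 11 each, the male liver 13, and kidney and spleen 14 each. More peaks did not mean more of the window covered. The 7 lung peaks covered 38345 bp, whereas the 14 kidney peaks covered 17111 bp and the 14 spleen peaks 19228 bp. The male liver and heart peaks also had large summed widths, 35309 and 34943 bp. These sums count a peak that crosses the window edge in full. Most of 1 male liver peak, 1766456 to 1775227, lay outside the window, so the male liver peaks covered less of the window than their sum. The uterus list covered the least, with 11588 bp. The median width of the 94 peaks was 705.5 bp and 58 were narrower than 1 kb. Very low peaks were among them. A count was found in at least 1% of the cells for 55 peaks, and 7 peaks had 3 counts or fewer, 6 of them in the female liver and 1 in kidney.

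**Figure D1:**
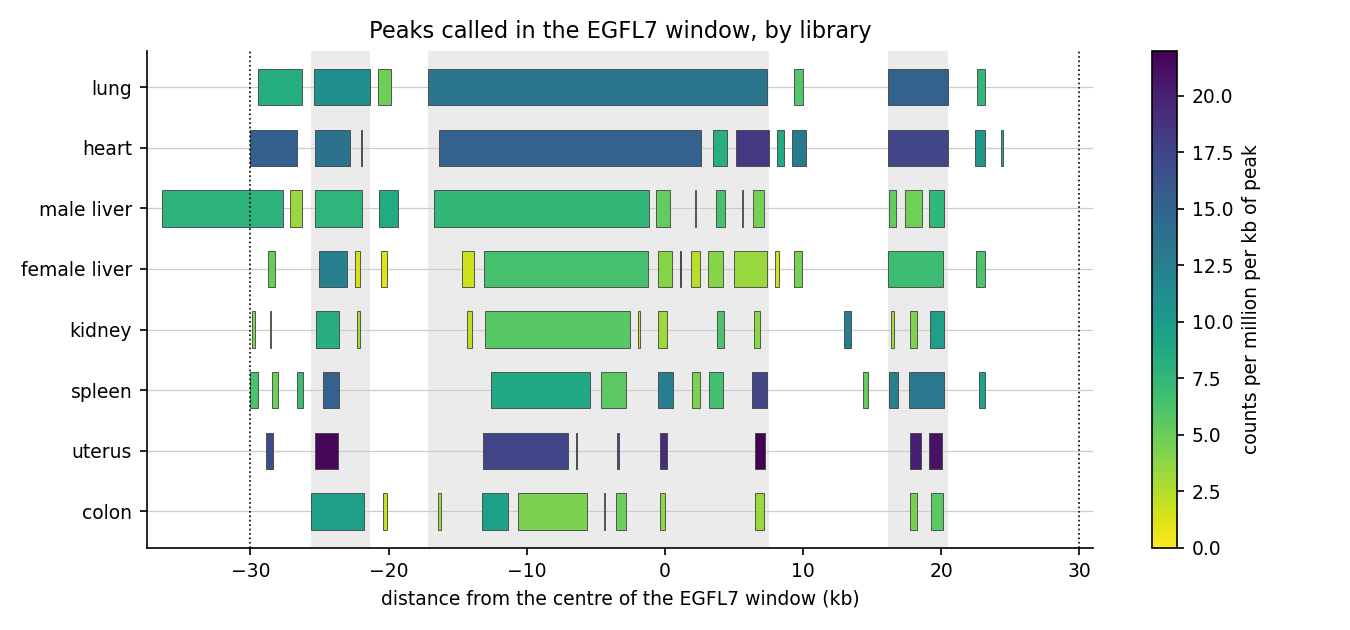
The peaks of the EGFL7 window in each library, drawn to scale. The x axis is the distance from the window centre in kb, each row is a library in the order of its widest peak in the central region, the colour of a box is its CPM per kb, grey bands are the 3 regions called in all 8 libraries and dotted lines are the window edges. The lung row has 1 box of 24513 bp where the colon row has 7 separate peaks.

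When peaks that overlapped by at least 1 bp were merged over the 8 lists, 11 regions resulted, and 3 of them were called in all 8 libraries. The largest, called the central region here, spanned 1785716 to 1810366 (24651 bp), contained the window centre and held 41 of the 94 peaks. The left region spanned 1777272 to 1781495 (4224 bp, 11 peaks) and the right region spanned 1819011 to 1823375 (4365 bp, 15 peaks). Another region, the edge region, spanned 1766456 to 1776654. Among the peaks that overlapped the window, it was called in 7 libraries, colon being the exception. It began outside the window, and peaks lying wholly outside the window were not looked at in any library. The other 7 regions were called in between 1 and 4 libraries. By width, the central region ranked 39 among the 19964 merged regions of the genome that were called in all 8 libraries, whose median width was 2100 bp.

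Peaks of at least 5000 bp were called wide, and 9 of the 94 reached this width. Each library had 1 wide peak in the central region, and the male liver had another in the edge region. Over each whole peak list, the share of peaks this wide was 0.733% in colon, 0.575% in heart, 0.384% in kidney, 0.274% in the female liver, 1.39% in the male liver, 0.826% in lung, 0.483% in spleen and 0.554% in uterus.

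The widest was the lung peak, 1785716 to 1810228, with 24513 bp. It ranked 6 by width among the 83244 lung peaks. The heart peak, 1786516 to 1805433, had 18918 bp and ranked 10 among 68713. The peaks of both livers ended near the same position but began at different ones. In the male liver the peak ran from 1786167 to 1801690 (15524 bp), and in the female liver from 1789780 to 1801637 (11858 bp). The kidney peak, 1789810 to 1800310, had 10501 bp. Narrower peaks were called in the remaining organs, with 7224 bp in spleen (1790231 to 1797454), 6137 bp in uterus (1789714 to 1795850) and 5037 bp in colon (1792197 to 1797233). The colon peak ranked 769 among 108470, well behind the others in their own lists.

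The wide lung peak was read against the peaks of every other library. It overlapped 7 peaks each in colon and in the female liver, 6 each in kidney, the male liver and spleen, 5 in uterus and 3 in heart. The number of overlapped peaks depends on width. Among all 83244 lung peaks, 0.0156% overlapped at least 5 peaks of the colon list, 0.036% of the kidney list, 0.0505% of the female liver list, 0.0168% of the male liver list, 0.0216% of the spleen list and 0.012% of the uterus list. Among the 93 lung peaks of at least 10000 bp these shares rose to 36.6% against the female liver list, 28% against kidney, 18.3% against spleen, 14% against colon, 10.8% against the male liver list and 9.68% against uterus. The overlapping peaks, the wide peak of each library among them, filled different parts of it. The 3 heart peaks covered 90.3% of its length, the female and male liver peaks 72.8% and 73.6%, the spleen and kidney peaks 51.7% and 51.4%, the colon peaks 36.7% and the uterus peaks 30.9%.

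The wide heart peak lay wholly inside the lung peak. It overlapped 6 peaks in colon, 5 in the female liver, 4 each in kidney, spleen and uterus, and 3 in the male liver. These covered between 36.4% of it in uterus and 85.8% in the male liver. Thus the heart and lung lists divided the region least. Called widths move with depth and with how the peak caller merges near peaks. Their part in these differences was not tested.

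Base by base, 5973 bp of the central region (24.2%) were called in all 8 libraries and 1612 bp in a single library. The bases called everywhere formed 6 segments. The longest, 1792197 to 1795850, had 3654 bp, and the next, 1790231 to 1791527, had 1297 bp. The other 4 were short and had 380 bp (1802506 to 1802885, which holds the window centre), 367 bp (1809401 to 1809767), 172 bp and 103 bp. The bases called in both heart and lung came to 22147 bp, and 2063 of these were called in no other library. Among them was a run of 544 bp, 1801691 to 1802234. In the other 6 libraries this run was not called, and it divided the central region into a larger part on its left and a smaller part on its right.

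Some narrow peaks shared their positions between libraries. Outside the wide peaks, 11 sites of the central region had a separate narrow peak in at least 1 library. Of these, 3 were separate in 5 or more libraries and 5 in a single one. The site at the window centre, 1802235 to 1803405, was a separate peak in 6 libraries and lay inside the wide peak in heart and lung. Its level was 13.2 CPM in spleen, 9.04 in uterus, 5.14 in the male liver, 4.04 in the female liver (from 8 counts), 2.12 in kidney and 1.51 in colon. The site at the right end, 1807854 to 1810366, was separate in 7 libraries and lay inside the wide peak only in lung. It reached 44.0 CPM in heart, 19.0 in spleen, 15.3 in uterus and 8.09 in the female liver. The male liver had 3.62, colon 2.14 and kidney 1.66. Called widths at this site differed, from 435 bp in kidney to 2373 bp in heart. Per kb uterus was the highest with 22.1 CPM, ahead of heart with 18.6 and spleen with 17.5. Kidney had 3.81, the female liver 3.42 and colon 3.38. The wider of the 2 male liver peaks, at 1809251, had 4.56. At the window centre uterus was also above spleen per kb, with 19.2 against 12.7. In plain CPM spleen and uterus stood above the male liver, kidney and colon at both sites, and the intervals of uterus and the female liver overlapped. Against the median density of its own list, uterus (0.802) lay below spleen (1.72), the male liver (0.983) and the female liver (0.888) at the window centre. It lay above colon (0.715) and kidney (0.466) there. On the same scale, uterus (0.924) lay below spleen (2.38) and heart (1.54) at the right end, and above both livers, colon and kidney. Another site, 1806002 to 1807359, was separate in 5 libraries, with 8.18 CPM in heart, 6.61 in spleen, 4.13 in the male liver, 4.04 in the female liver and 3.05 in kidney. The remaining 8 sites were separate in 1 to 3 libraries each, and 6 of the 8 were covered by a wide peak in at least 3 libraries.

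The weight of the smaller part differed between libraries. To the right of the uncalled run lay 35.8% (34.2 to 37.4%) of the counts of the central region in spleen. The same part held 18.8% (11.5 to 28.0%) in the female liver, 17.9% (16.5 to 19.4%) in uterus, 10.2% (9.42 to 11.0%) in the male liver, 10.1% (8.55 to 11.8%) in kidney and 7.59% (6.61 to 8.66%) in colon. The spleen interval overlapped none of the other 5. Per kb of called sequence, the right part was denser than the left part in spleen, with 11.2 against 8.17 CPM per kb, and in uterus, with 20.9 against 17.4. It was less dense in the male liver, with 5.16 against 7.41, and in colon, with 3.52 against 5.58.

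**Figure D2:**
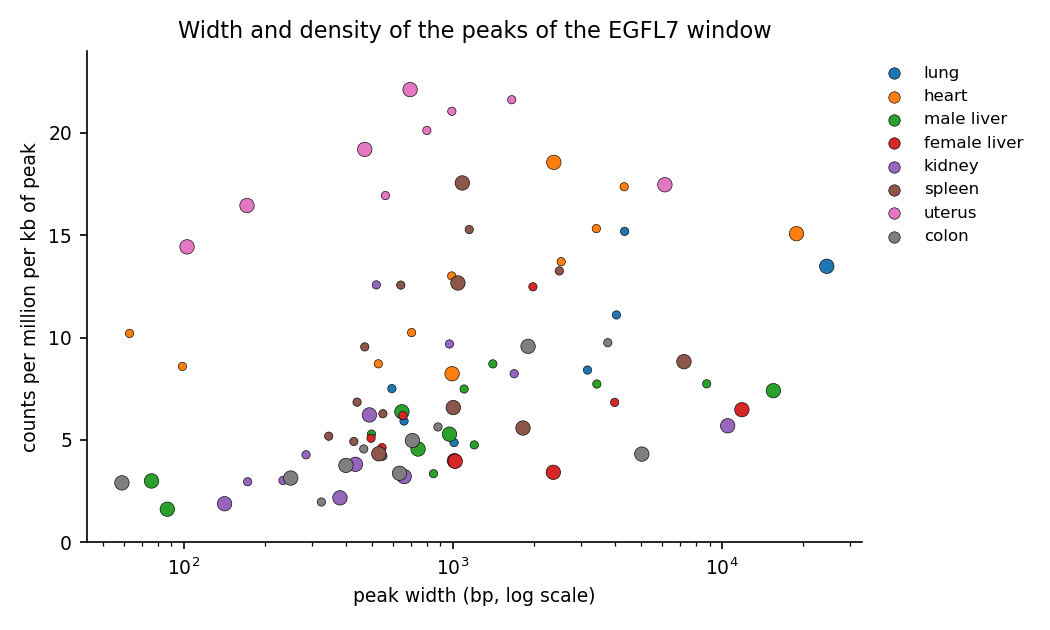
Width of each window peak in bp (x axis, log scale) against its level in CPM per kb (y axis), for peaks with more than 3 counts. Points are coloured by library and large points are peaks of the central region. The widest peaks, of lung and heart, had 13.5 and 15.1 CPM per kb, and several narrow uterus peaks lay above them.

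Wide peaks were not simply the densest ones. The wide peak of the central region had 17.5 CPM per kb in uterus, 15.1 in heart, 13.5 in lung, 8.82 in spleen, 7.41 in the male liver, 6.48 in the female liver, 5.69 in kidney and 4.31 in colon. The uterus list was short and its median peak had 23.9 CPM per kb, against 4.49 in the female liver, so the peaks were also set against the median of their own list. On this scale the lung peak was 1.62 times the median peak, the female liver peak 1.44, the male liver peak 1.38, the heart peak 1.25 and the spleen peak 1.197. The kidney, colon and uterus peaks lay below their medians, at 0.826, 0.820 and 0.730. Of the 85 peaks narrower than 5000 bp, 30 were above the median of their own list, and their median on this scale was 0.880. Of the 9 wide peaks, the edge region included, 6 were above it, and their median was 1.25.

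The summed level of the central region was highest in heart and lung. It was 337 CPM (330 to 344) in heart and 330.4 CPM (325.5 to 335.4) in lung, and these intervals overlapped. The next values were 136 CPM (131 to 141) in uterus and 128 CPM (125 to 131) in the male liver. Spleen had 115 CPM (111 to 119), the female liver 96.5 CPM (78.2 to 118), kidney 67.7 CPM (64.2 to 71.4) and colon 48.1 CPM (46.3 to 49.9). Heart and lung thus formed an upper pair, and the intervals of the neighbours uterus and male liver, and of spleen and the female liver, also overlapped. These are sums over the called peaks, which covered 22285 bp in heart and 8993 bp in colon. By this sum heart was 2.93 times the median of the other 7 libraries and 7.02 times colon, while per kb of called sequence heart had 15.1 CPM and colon 5.34.

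Differences of this size between libraries were common. Among the 19964 regions called in all 8 libraries, the highest library was at least 2 times the median of the other 7 in 42.7%, and 77.4% had a smaller ratio than the central region. Heart was the highest library in 13.2% of these regions and lung in 7.48%. Both heart and lung stood above the other 6 libraries in 5.21%. The central region was among the widest of these regions, which raises its summed CPM. By this sum it ranked 17 in heart, 20 in lung, 295 in the male liver, 595 in the female liver, 737 in uterus, 762 in spleen, 1504 in kidney and 4339 in colon, although the widest peaks of uterus, kidney and colon were below the median density of their own lists.

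**Figure D3:**
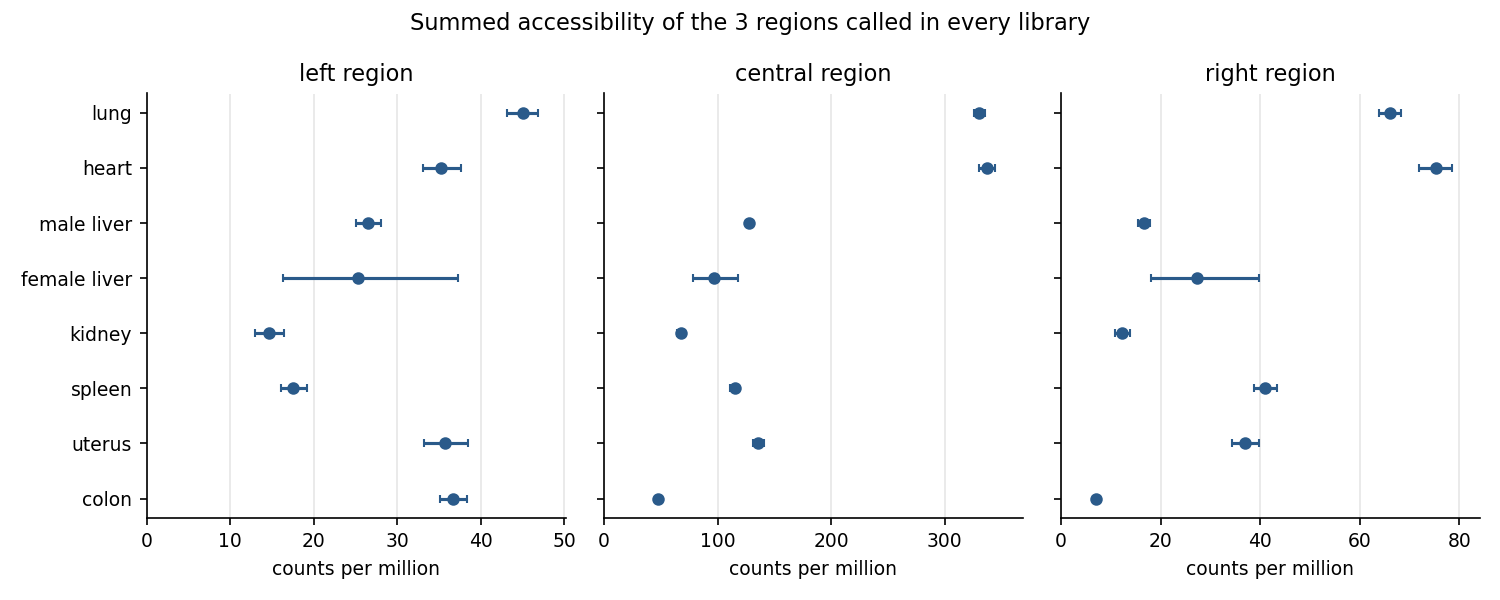
Summed level in CPM of the left, central and right regions in each library, with 95% exact Poisson intervals as error bars. In the central region heart (337) and lung (330.4) stand above the other 6 libraries, whereas in the left region lung (45.0) and colon (36.7) have the highest sums.

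The order depended on the unit. Called lengths in the central region differed between libraries, and per kb of called sequence uterus was the highest with 17.9 CPM per kb, ahead of heart with 15.1 and lung with 13.5. Spleen followed with 9.05, then the male liver with 7.09, the female liver with 5.41, kidney with 5.37 and colon with 5.34. Against the median density of its own list, however, the wide uterus peak was at 0.730, the lowest of the 8 libraries, with heart at 1.25 and lung at 1.62. Peak lists also differed in length, so the level was computed again per 1000000 counts in the regions called in all 8 libraries. These regions held 84.5% of the counts in uterus and 52.5% in the male liver. On this scale heart (489.5) and lung (480.3) remained the highest and colon (79.6) the lowest, while uterus (161) moved below the male liver (244), spleen (175) and the female liver (167).

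The share of cells with a count followed a similar order. In the central region 53.9% (52.5 to 55.2%) of heart cells and 43.8% (42.9 to 44.6%) of lung cells had at least 1 count. The share was 29.8% in the male liver, 24.9% in uterus, 15.4% in colon, 13.2% in spleen, 12.0% in kidney and 10.6% (8.44 to 13.0%) in the female liver. Shares rise with the depth of a cell and with the called length. That length was 24513 bp in lung, 22285 bp in heart, 8993 bp in colon and 7577 bp in uterus. Each cell was also thinned to 1000 counts, which adjusts for depth but not for length. The thinned shares were 16.8% in heart, 14.5% in lung, 7.42% in the male liver, 6.18% in uterus, 5.71% in the female liver, 4.83% in spleen, 3.71% in kidney and 2.81% in colon. Colon moved to the last place, which the female liver had held before thinning, and the female liver moved above spleen and kidney. Without thinning, at least 3 fragments were found in 25.7% of heart cells and 18.3% of lung cells, but in 6.45% of uterus cells and 4.46% of male liver cells. In the other 4 libraries this share was between 0.412% in the female liver and 1.45% in colon. A group of cells known to lack an open EGFL7 locus was not used here, so the share that background cuts would give was not measured.

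**Figure D4:**
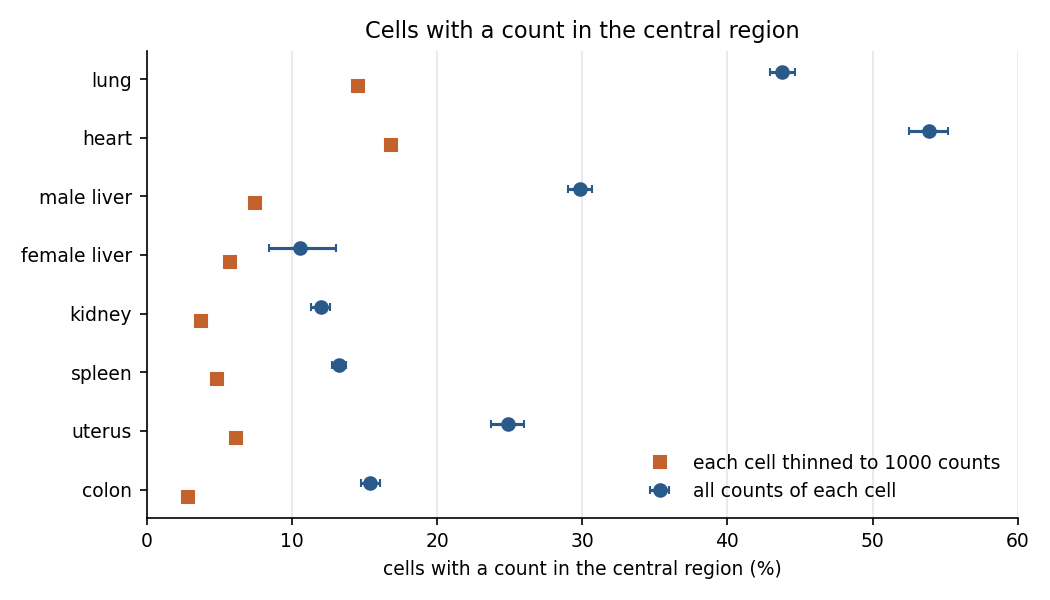
Percentage of cells with a count in the central region in each library, at the depth of each cell and after thinning each cell to 1000 counts. Error bars on the unthinned shares are 95% exact binomial intervals. Heart falls from 53.9% to 16.8% and colon from 15.4% to 2.81% on thinning.

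The left and right regions were ordered differently. The left region reached 45.0 CPM in lung, 36.7 in colon, 35.8 in uterus, 35.3 in heart, 26.5 in the male liver, 25.3 (16.4 to 37.3) in the female liver, 17.6 in spleen and 14.6 in kidney. Its highest library was 1.70 times the median of the other 7, and 43.8% of the regions called in all 8 libraries had a smaller ratio. By this sum colon was the lowest library in the central region and the next after lung here. The left-region interval of colon (35.1 to 38.3) overlapped those of uterus (33.3 to 38.4) and heart (33.0 to 37.6). The called length differed between libraries, however, and per kb of called sequence the left region was highest in uterus, with 21.6 CPM per kb, ahead of spleen with 15.3, heart with 13.6, lung with 11.1, the female liver with 10.8 and colon with 9.75, and lowest in the male liver and kidney, with 7.73 and 7.60. The right region reached 75.2 CPM (71.9 to 78.6) in heart, 66.0 (63.8 to 68.3) in lung, 41.0 in spleen, 37.0 in uterus, 27.3 (18.0 to 39.7) in the female liver, 16.6 in the male liver, 12.2 in kidney and 7.10 in colon. Summed over the called peaks, heart was again the highest and colon the lowest, 10.6 times apart, and heart was 2.76 times the median of the other 7. A smaller ratio was found in 75.0% of the regions called in all 8. Heart called 4332 bp of this region and colon 1348 bp. Per kb of called sequence uterus was the highest with 20.6 CPM per kb, followed by heart with 17.4 and lung with 15.2, and colon remained the lowest with 5.26. Against the median density of its own list, however, the widest uterus peak was the lowest of the 8 libraries in both regions. It had 0.903 in the left and 0.880 in the right region, and the widest heart peaks had 1.14 and 1.44. In the right region the widest male liver peak was close to uterus, at 0.885.

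Within a library the regions can be compared without the total. The central region held 9.56 times the counts of the left region in heart, 7.34 times in lung, 6.55 times in spleen, 4.83 times in the male liver, 4.63 times in kidney, 3.82 times in the female liver, 3.80 times in uterus and 1.31 times in colon. The central region was also longer, and per kb of called sequence this ratio was 1.21 in lung and 1.11 in heart and below 1 in the other 6 libraries, down to 0.502 in the female liver. The right region held 2.33 times the counts of the left region in spleen, 2.13 times in heart, 1.47 times in lung and 0.193 times in colon. By the sums colon had the fewest counts in the central and right regions relative to the left one. Per kb of called sequence the right region was below the left one in spleen, with 13.1 against 15.3 CPM per kb, and in colon, with 5.26 against 9.75. It was above the left one in heart, with 17.4 against 13.6, and in lung, with 15.2 against 11.1.

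The right region repeated the pattern of 1 peak against several. It was 1 peak of 4332 bp in heart, 4348 bp in lung and 3993 bp in the female liver. It was divided into 2 peaks in colon, spleen and uterus and into 3 in kidney and the male liver. The segments called in all 8 libraries were 1820620 to 1821086 (467 bp) and 1822134 to 1822941 (808 bp). In the left region a single segment of 1080 bp, 1778131 to 1779210, was called in all 8, while the called length ranged from 1151 bp in spleen to 4055 bp in lung.

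Where 2 libraries had peaks with nearly the same boundaries, overlapping by at least 80% of the wider one, the called length differed little. This was met by 28 pairs of peaks. In the right region the heart and lung peaks overlapped by 99.4% and differed by 1.14 times in CPM, with heart the higher. Against the median density of its own list the lung peak was the higher, with 1.82 against 1.44 in heart. In the central region the wide peaks of heart and the male liver overlapped by 80.2%, with 285 CPM in heart and 115 in the male liver, a ratio of 2.48. Against the median density of their own lists the order of this pair turned, with 1.25 in heart and 1.38 in the male liver. The wide peaks of kidney and the female liver overlapped by 88.6%, with 59.8 CPM (56.5 to 63.2) and 76.8 CPM (60.5 to 96.2), and these intervals overlapped. In plain CPM, colon and uterus differed most among these pairs. At 1802485 the colon peak had 1.51 CPM and its uterus counterpart 9.04, which was 5.99 times higher, and at 1809401 the values were 2.14 and 15.3, which was 7.17 times higher. Set against the median density of their own lists, the same pairs were closer, with 0.715 in colon and 0.802 in uterus, and with 0.642 and 0.924.

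The edge region lay nearest to the left border of the window and was, by summed CPM, the one of the 4 main regions in which the livers differed most. Its level was 70.8 CPM in the male liver, 52.3 in heart, 26.6 in lung, 9.52 in uterus, 8.59 in spleen, 2.53 (0.420 to 8.09, from 5 counts) in the female liver and 1.29 in kidney. The male liver value came mainly from its second wide peak, 1766456 to 1775227, with 8772 bp and 67.9 CPM in 20.1% of cells, most of which lay to the left of the window. The called length was 9620 bp in the male liver and 497 bp in the female liver. The 2 livers thus differed 28.0 times in CPM but 1.45 times per kb. The male liver peak was counted in full, whereas peaks wholly to the left of the window were not counted in any library. The sums and lengths of this region therefore cover unlike stretches. Per kb of called sequence uterus was the highest, with 16.9 CPM, ahead of heart with 15.3, lung with 8.41 and the male liver with 7.36. Spleen had 6.05, the female liver 5.09 and kidney 3.57. Against the median density of its own list the uterus peak was at 0.708, below heart (1.27), lung (1.01) and the wide male liver peak (1.44). The kidney peaks were lower, at 0.621 and 0.138. In the other 3 main regions the livers were closer. The male liver was 1.33 times the female liver in the central region, 1.05 times in the left region and 0.609 times in the right region. The direction in the central region depended on the minimum of counts per barcode, since with all deposited barcodes the male liver had 128 CPM and the female liver 132, and with a minimum of 2000 counts they had 123 and 70.8. In the left region the male liver was below the female liver per kb, at 0.718 times. Only 728 cells stood behind the female liver values.

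The 7 regions called in few libraries were mostly low in summed CPM. The region from 1815834 to 1816353 was called only in kidney, at 6.54 CPM. Its density was 12.6 CPM per kb, 1.82 times the median of the kidney list, against 5.69 in the wide kidney peak. Spleen alone had 1817212 to 1817557, at 1.79 CPM, and heart alone 1827200 to 1827298, at 0.851 CPM. Their densities were 0.704 and 0.715 times the medians of their lists. A region from 1782052 to 1783535 was called in colon, both livers and lung, and its highest level was 12.3 CPM in the male liver. The density there was 8.72 CPM per kb, 1.62 times the median of that list. Another, 1812052 to 1813042, was called in heart, the female liver and lung, at 12.9, 2.53 and 3.90 CPM. A peak missing from a list was not called there, and counts outside peaks were not analysed here.

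Co-detection was compared in single cells. For each library, the number of cells with a count in both of 2 regions was divided by the number expected if the regions were independent among cells of like depth, in 10 bins. Cells of unlike type in 1 library raise this ratio, and it has a low ceiling where many cells have a count, as in heart. The central and right regions were found together more often than this expectation in 8 of 8 libraries, with an interval above 1 in 7. Among 4471 pairs of neighbouring regions called in all 8 libraries and at most 10000 bp apart, 17.4% had a ratio above 1 in all 8, and 0.649% had an interval above 1 in 7 or 8 libraries. Within single libraries the share of such pairs with an interval above 1 was 45.7% in colon, 30.6% in heart, 6.39% in kidney, 2.08% in the female liver, 24.7% in the male liver, 57.4% in lung, 10.1% in spleen and 57.2% in uterus. These pairs were not matched to the wide central region in width or in expected cells, on which an interval above 1 depends. At least 20 cells were expected for 1727 of 4461 pairs in kidney, 2144 of 4470 in spleen and 8 of 4186 in the female liver. The ratio of the central with the right region was 1.66 (1.37 to 2.002) in colon, 1.29 (1.22 to 1.37) in heart, 1.77 (1.33 to 2.30) in kidney, 1.69 (1.52 to 1.87) in the male liver, 1.54 (1.47 to 1.61) in lung, 1.53 (1.38 to 1.70) in spleen and 1.80 (1.63 to 1.99) in uterus. In the female liver it was 2.43 (0.977 to 5.01) and rested on 7 cells. Of the neighbouring pairs with a value in the same library, between 78.9% in heart and 92.9% in uterus had a lower ratio. Among the pairs with at least 20 expected cells, and leaving out the female liver, this share ran from 83.4% in heart to 99.4% in kidney.

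For the central with the left region, the interval lay above 1 in 4 libraries, and 23.2% of the neighbouring pairs had this in 4 or more. The share of neighbouring pairs with a lower ratio was 48.9% in lung and 53.2% in uterus, 78.7% in colon, 87.8% in kidney and 11.0% in heart. Among the pairs with at least 20 expected cells these shares were 51.9%, 58.2%, 91.0%, 99.0% and 9.90%, in the same order. The ratio was 1.64 (1.25 to 2.11) in kidney, 1.55 (1.41 to 1.69) in colon, 1.25 (1.10 to 1.41) in uterus and 1.19 (1.12 to 1.26) in lung. The intervals of the other 4 libraries included 1, with ratios from 0.669 in the female liver to 1.08 in the male liver. For the left with the right region the ratio was above 1 in 6 libraries and the interval in lung alone, at 1.27 (1.16 to 1.39). The genome-wide shares cover neighbouring regions only, so none stands beside this pair. The difference between the pairs of regions was not tested.

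**Figure D5:**
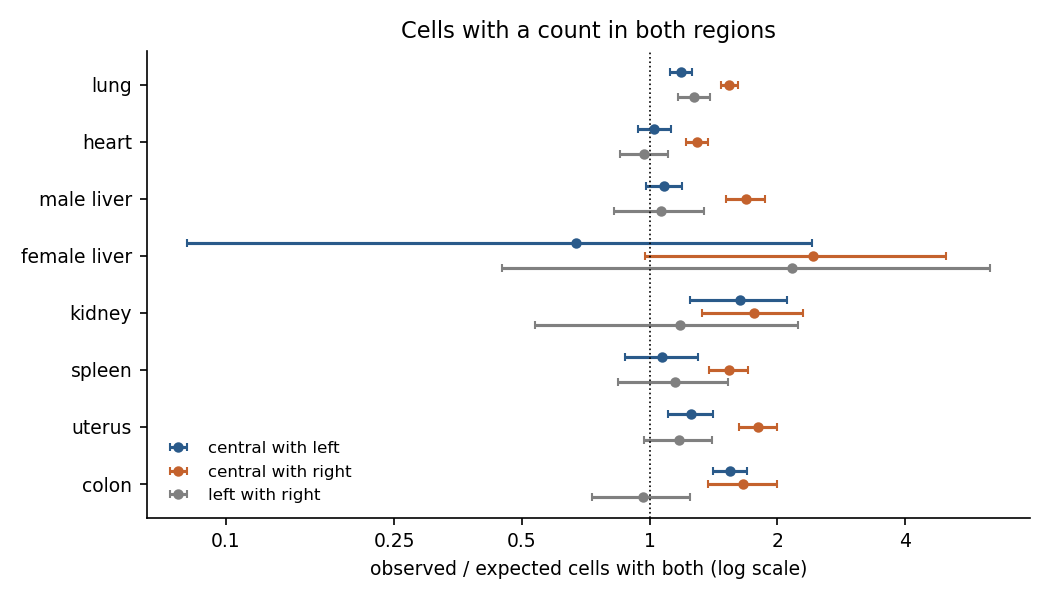
Ratio of observed to expected cells with a count in both of 2 regions (x axis, log scale) for 3 pairs of regions in each library. Error bars are 95% exact Poisson intervals and the dotted line marks 1. The ratio lies to the right of the line in 8 libraries for the central with the right region, with its interval in 7, and in 6 for the left with the right region, with its interval in 1 (lung, 1.27).

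Within the central region, the widest peak of a library was compared with each of its other peaks there. Of 33 such pairs, 21 had an interval above 1 and the median ratio was 2.30. Over the genome, 36.2% of 2672 pairs of the same kind, a peak of at least 5000 bp that was the widest of its merged region with another peak of that region, had an interval above 1, and their median ratio was 1.17. This share differed between libraries, from 10.4% in the female liver to 81.2% in uterus. In colon, the widest peak was found with the peak at 1802485 at a ratio of 4.78 (3.31 to 6.69) and with the peak at 1809401 at 4.28 (3.15 to 5.67). In kidney the ratio with the peak at 1809333 was 4.75 (2.66 to 7.84). In the other 12 pairs the interval included 1.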

How the data were processed

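scATAC-seq libraries from 8 samples of 7 organs were analysed. The authors processed the reads with Cell Ranger ATAC (version 1.2.0, per the labels), which called peaks separately in each library, and deposited, per library, the peaks, the barcodes and a sparse table with counts of transposase cuts. The deposited counts are not normalized. The genome build of the scATAC-seq files was not given in the sources used here (the methods name macFas6 for scRNA-seq). The methods describe forced cell numbers for some organs, and later steps (doublet removal, clustering) are not contained in the files. No doublet caller was run here. Barcodes with at least 1000 counts were kept. Poisson intervals (95%) were computed on fragments (counts divided by 2). Thinning to 1000 counts (500 fragments) used the expected value for each cell. Co-detection was computed in 10 depth bins. Peaks were merged at an overlap of 1 bp or more. Each organ other than liver had 1 library, so no test between organs was made, and alternative settings were compared instead. Depth ranged from 1978404 to 110748462 counts per library, and values of the female liver are the least precise. The named features were the gene EGFL7, all regions called in every library and all wide peaks. The window, the regions and the settings were chosen with earlier results of these data known, and the split of the central region, its sites, the pairs of peaks with like boundaries the co-detection without the deepest cells and the genome-wide shares beside the co-detection were chosen after seeing the data. Scripts were tested on simulated counts. Python 3.11.15, numpy 2.4.6, scipy 1.17.1, pandas 2.3.3 and matplotlib 3.10.9 were used.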

Additional observations from a re-analysis of the deposited data

Results flagged for a closer look

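Barcodes with fewer than 1000 counts were left out of the main values and entered only the settings with all deposited barcodes. They too had counts in the central region. In heart, 473 such barcodes held 133 counts there, 435 CPM (337 to 553), against 337 CPM in the kept cells and a limit of 19.6 CPM that 0 counts would allow (3 fragments, or 6 counts). In the female liver, 1382 barcodes held 156 counts, 240 CPM (190 to 300), against 96.5 CPM in the kept cells and a limit of 9.25 CPM. In uterus, 703 barcodes held 49 counts, 130 CPM (83.9 to 193), against 136 CPM in the kept cells and a limit of 15.95 CPM. The female liver was the library in which the kept and the discarded barcodes differed beyond their intervals, and the cause was not tested.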

How the results depend on the processing

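Heart remained the highest library of the central region under every setting tried for CPM and for shares of cells. In CPM per kb of called sequence uterus was the highest. Against the median density of its own list, however, the wide uterus peak was at 0.730 and the wide heart peak at 1.25. The heart CPM over the median of the other 7 was 2.93. This ratio was 2.64 with all deposited barcodes and 2.76 with a minimum of 2000 counts. Without the deepest cells of each library (a stand-in for doublets) it was 3.96. The heart share of cells over that median was 3.50, and 3.27, 3.36 and 3.84 under the same settings and 2.94 after thinning. Without 1 liver library, the CPM ratio ranged from 2.77 to 3.19 and the ratio of shares from 2.68 to 3.76. The number of wide peaks was 9, and 17 from 3000 bp and 5 from 10000 bp, by construction of the limit. The cause of the other shifts was not tested. The central region of the female liver moved from 96.5 to 132 CPM with all barcodes and to 70.8 with a minimum of 2000 counts, against 128 and 123 in the male liver, so that with all barcodes the order of the livers turned. The share of cells left out as deepest rose with the size of a library, with 4007 of 20019 in spleen and 5 of 728 in the female liver. Without these cells the spleen level fell from 115 to 93.9 CPM, below the 99.0 CPM of the female liver. The spleen share of cells fell from 13.2% to 8.84%, the lowest of the 8 libraries. These changes of order compare libraries that lost unlike shares of their cells. With a minimum of 2000 counts the spleen share was 17.4%, above the 15.7% of colon. Without the deepest cells, chosen after seeing the data, the central and right regions kept a ratio between 1.31 and 2.66, with an interval above 1 in 8 of 8 libraries. No paired analysis was possible because only liver had more than 1 library. Depth limits the female liver most, where single peaks rest on few counts.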
